A study of Mus musculus with 4 samples.

Results

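The genes described here are 32 genes of cholesterol and fatty acid synthesis, chosen by name and matched to the count table of a study that compared Usp28 KO with control mouse embryonic stem cells. All 32 were found among the 55401 genes of the table, and all 32 passed the filter on low counts that left 15341 genes for testing. They fall into a sterol branch of 18 genes (7 of the mevalonate pathway, 11 from squalene to cholesterol), a fatty acid branch of 6 genes, 5 genes for the SREBP factors and their regulators, and 3 genes of cholesterol transport. Polyadenylated RNA was sequenced from R1 cells, an embryonic stem cell line, of genotype Usp28 KO (2 libraries) and of genotype WT, called control (2 libraries). Both groups grew on gelatin in N2B27 medium with the MEK inhibitor PD0325901, the GSK3 inhibitor CHIR99021 and LIF (2i/LIF). The sources used here do not give how the knockout was made, whether the KO cells are 1 clone, or whether replicate libraries stem from different cultures. A p-value below therefore reflects library-to-library spread alone, and that spread may be technical. Usp28 encodes a deubiquitinase that counters the FBXW7 ubiquitin ligase.

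Cholesterol is built from acetyl-CoA through mevalonate, isoprenoid units and squalene, and fatty acids are built from the same acetyl-CoA by carboxylation, elongation and desaturation. Both branches are transcribed under the sterol regulatory element binding proteins (SREBPs), which SCAP escorts from the endoplasmic reticulum to the Golgi for cleavage and which INSIG proteins hold back when sterols are plentiful. SREBP2 is known mainly for sterol genes and SREBP1 mainly for fatty acid genes. Nuclear SREBPs are among the known substrates of FBXW7.

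The DNA before the start of these genes is shown because SREBPs act there together with the factors NF-Y and SP1. RefSeq promoter windows (build GRCm38.p6) were found for 25 of the 32 genes, and letters were searched on both strands in the 250 bases before each start. The CCAAT letters recognised by NF-Y were in at least 1 window of 20 of these 25 genes (80%), against 41.1% of the 10605 tested genes with a window. They were in 14 of 15 sterol branch genes (93.3%) and in 1 of 4 fatty acid branch genes (25%). The GC box GGGCGG was in 21 of the 25 genes (84%), against 64.5% of tested genes, and the E-box CACGTG in 5 (20%), against 9.89%. Some genes have several windows; among genes with 1 window, CCAAT was in 16 of 20 members (80%) and in 34.7% of all genes. The sterol regulatory element core TCACNCCAC was in 1 of the 25 (4%), Hmgcs1, against 1.3% of tested genes. A match of letters describes the sequence and is no evidence of binding. Below, capitals mark CCAAT, its reverse complement ATTGG (the 2 overlap once in Fasn) and, in Hmgcs1, the sterol element core; each sequence stops at the start of the gene in the count table where that lies inside the window. Insig1 and Srebf2 are shown as the 2 genes with the lowest p, Hmgcs1 as the one with a sterol element core, and Fasn as the fatty acid branch gene with CCAAT letters.
Insig1, chr5:28071162-28071362, plus strand: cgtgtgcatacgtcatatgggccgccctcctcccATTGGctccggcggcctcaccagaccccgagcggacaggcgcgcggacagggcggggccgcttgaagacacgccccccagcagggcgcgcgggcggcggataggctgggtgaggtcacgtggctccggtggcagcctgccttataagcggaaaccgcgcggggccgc
Srebf2, chr15:82147019-82147180, plus strand: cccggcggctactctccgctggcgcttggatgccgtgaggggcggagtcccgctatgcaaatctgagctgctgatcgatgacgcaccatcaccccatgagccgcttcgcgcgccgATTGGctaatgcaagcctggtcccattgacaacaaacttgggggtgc
Hmgcs1, chr13:119690101-119690350, plus strand: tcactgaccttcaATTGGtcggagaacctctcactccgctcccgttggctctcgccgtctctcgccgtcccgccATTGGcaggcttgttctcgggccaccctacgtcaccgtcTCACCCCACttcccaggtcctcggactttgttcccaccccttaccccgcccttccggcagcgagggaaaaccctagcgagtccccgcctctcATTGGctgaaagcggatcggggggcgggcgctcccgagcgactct
Fasn, chr11:120824548-120824797, minus strand: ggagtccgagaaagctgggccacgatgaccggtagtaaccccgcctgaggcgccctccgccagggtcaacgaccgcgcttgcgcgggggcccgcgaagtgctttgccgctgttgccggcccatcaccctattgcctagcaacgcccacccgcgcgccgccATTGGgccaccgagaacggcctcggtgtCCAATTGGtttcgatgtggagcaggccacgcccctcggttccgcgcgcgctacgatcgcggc

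The libraries held 17996611 and 18709558 counts in the Usp28 KO group and 19533608 and 16595196 in the control group. Usp28 itself had 3392 and 3319 counts in the Usp28 KO libraries and 3690 and 3120 in the control libraries, or 181.5 and 177.0 CPM (counts per 1000000 after scaling) in Usp28 KO and 188.9 and 196.7 CPM in control libraries. Both scaled Usp28 KO values lay below both control values, by less than the SE (log2 fold change -0.11 ± 0.15; edgeR, adjusted p = 0.857), and a transcript at this level does not check the labels. Every direction given refers to the libraries by their labels. The 7 markers of pluripotent cells summed to 4460 CPM in each Usp28 KO library and to 4930 and 4880 CPM in the control libraries. Among them Tfcp2l1 (log2 fold change -0.54 ± 0.17) and Zfp42 (-0.33 ± 0.17) were lower in Usp28 KO without overlap, Dppa5a had 0.48 ± 0.23 with overlap, and none passed the test. Fibroblast markers summed to at most 1.07 CPM in any library, with Postn and Lum at 0 in all 4, and no library had more than 20.9 CPM over the 6 trophectoderm markers or 13 CPM over the 7 primitive endoderm markers. Neural markers summed to 132 and 123 CPM in Usp28 KO libraries and to 122 and 91.3 CPM in control libraries, with Neurog2 at 0. Among them Nes had 53.8 and 43.9 CPM in Usp28 KO libraries, against 19.1 and 21.7 CPM in control libraries. Its log2 fold change was 1.26 ± 0.19 (edgeR, adjusted p = 0.0540, no gene having a lower one). Tubb3 had -0.20 ± 0.28, or -0.30 after the GC correction named below. The part of these markers in the results below was not tested. In bulk RNA, fewer cells of a type and less RNA per cell cannot be told apart. Expression also varied with transcript GC content: the rank correlation across genes of a library's level, relative to the other libraries, with GC content was 0.0031 and 0.451 in Usp28 KO replicates 1 and 2, and 0.0555 and -0.441 in control replicates 1 and 2. The log2 fold change between the groups had a rank correlation with GC content of 0.323 across genes averaging at least 5 CPM. For single genes, values after a correction for this trend are given where they differ from the main value by more than 1.5 times, and for Srebf2 and Pmvk. The part of this trend in the other differences was not tested.

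None of the 32 genes passed the test between Usp28 KO and control cells (edgeR quasi-likelihood test, Benjamini-Hochberg adjusted p under 0.05 over all 15341 genes), a test that no gene of the table passed (0%). Members had adjusted p-values of 0.337 or more. At an unadjusted p under 0.05, 3 members were higher in Usp28 KO cells (Insig1, Srebf2 and Dhcr7) and 0 were lower. Over all tested genes 6.86% were higher and 4.34% lower at that level, so 3 of 32 is near the background. DESeq2 passed none of the members (0.929% of the 13668 genes with an adjusted p). At its unadjusted p under 0.05, 2 members were higher. There 2.48% of 27042 genes were higher and 2.05% lower, shares that include genes of low counts and so are not like those of edgeR. With limma-voom no member passed either (0% of all genes), and 3 were higher at such a p, where 6.85% of all genes were higher and 4.3% lower. Without the filter on low counts 0 members and 1.19% of all genes passed. With the replicate number added to the model as a block, 3 members and 11.0% of all genes passed. With this block and GC correction, 9 members and 20.8% of all genes passed. Both fits with the block leave little spread between libraries to measure in each gene, and their members are named below. With 1 library left out, 0 members passed without control replicate 1 (0.891% of all genes), control replicate 2 (1.01%) or Usp28 KO replicate 1 (0.884%), and 1, Stard4, passed without Usp28 KO replicate 2 (2.16%). Those fits with a library left out do not measure the spread in the group that lost it. Both Usp28 KO libraries lay above both control libraries for 11 of the 32 genes (34.4%), and both lay below for 1. The same held for 21.4% and 20.4% of all tested genes (18.1% and 22.8% of genes averaging at least 5 CPM). With upper-quartile factors these shares of all genes were 26.1% and 15%, with 12 and 0 members. The median log2 fold change was 0.09 over the members and -0.004 over all tested genes, and 17 members differed from 0 by less than 1 standard error (SE). The 95% intervals of the log2 fold changes lay between -0.66 (lower bound for Scap) and 1.32 (upper bound for Fdps).

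Insig1 and Srebf2 had the highest log2 fold changes of the 5 SREBP genes and regulators, and for 3 of the 5 (60%) both Usp28 KO libraries lay above both control libraries, against 21.4% of all tested genes. Insig1 (ENSMUSG00000045294, chromosome 5, 28071363 to 28078662 on mm10) encodes the sterol sensor protein that retains SCAP in the endoplasmic reticulum and is itself a known SREBP target. It had 196.5 and 147.9 CPM in Usp28 KO libraries, against 131.9 and 116.5 CPM in control libraries. Both Usp28 KO values were above both control values, though the gap between the groups (147.9 against 131.9 CPM) was smaller than the gap between the Usp28 KO libraries. The log2 fold change was 0.47 ± 0.18 (SE; 95% interval 0.09 to 0.85; edgeR, unadjusted p = 0.0198, adjusted p = 0.337), and 0.25 without Usp28 KO replicate 1. Insig2, its paralog, had 22.9 and 15.04 CPM in Usp28 KO libraries and 16.8 and 14.8 CPM in control libraries, groups that overlapped (log2 fold change 0.26 ± 0.24).

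Srebf2 (ENSMUSG00000022463, chromosome 15, 82147181 to 82205379), the gene of SREBP2, had 493 and 554 CPM in Usp28 KO libraries, against 400.2 and 400.5 CPM in control libraries. The control libraries were nearly equal and both Usp28 KO libraries lay above them. Its log2 fold change was 0.39 ± 0.16 (95% interval 0.03 to 0.74, edgeR, unadjusted p = 0.0355, adjusted p = 0.401). After GC correction it was 0.26 (edgeR, unadjusted p = 0.0849). Srebf1, the gene of SREBP1, had 134 and 141 CPM in Usp28 KO libraries and 128 and 117 CPM in control libraries, which did not overlap, and a log2 fold change of 0.17 ± 0.16 that was 0.04 after GC correction. Its exons overlap those of Rai1 on the other strand, so its count is uncertain. Scap, the escort protein gene, had 20.5 and 21.3 CPM in Usp28 KO libraries and 28.4 and 18.1 CPM in control libraries. The Usp28 KO values lay between the control values, and the log2 fold change was -0.16 ± 0.23, or -0.28 after GC correction.

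The mevalonate pathway genes showed no common direction, with 5 of 7 log2 fold changes above 0 and a median of 0.05. Acat2, the cytosolic thiolase gene, had 98.1 and 71.3 CPM in Usp28 KO libraries, against 89.6 and 76.8 CPM in control libraries. Hmgcs1, which encodes the synthase of HMG-CoA, had 265 and 191 CPM in Usp28 KO libraries, against 239.5 and 199.8 CPM in control libraries. For both genes the Usp28 KO libraries held the highest and the lowest value of the 4, and the log2 fold changes were 0.03 ± 0.19 and 0.05 ± 0.19 (0.12 for Hmgcs1 after GC correction). Mvk, the mevalonate kinase gene, had 27.1 and 27.3 CPM in Usp28 KO libraries, against 33.5 and 24.4 CPM in control libraries (log2 fold change -0.09 ± 0.20, or -0.18 after GC correction).

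The groups did not overlap for the genes of the next kinase and of the decarboxylase. Pmvk, the phosphomevalonate kinase gene, had 52.2 and 52.3 CPM in Usp28 KO libraries, against 39.4 and 42.2 CPM in control libraries. The gap between the groups was wider than the spread within either (log2 fold change 0.36 ± 0.17, edgeR, unadjusted p = 0.0543, adjusted p = 0.459). After GC correction the log2 fold change was 0.25 (edgeR, unadjusted p = 0.129). Mvd, the mevalonate diphosphate decarboxylase gene, had 68.0 and 71.3 CPM in Usp28 KO libraries, against 61.2 and 50.95 CPM in control libraries (log2 fold change 0.31 ± 0.17, or 0.18 after GC correction). Idi1, which encodes the isomerase of the isoprenoid units, had 46.3 and 32.2 CPM in Usp28 KO libraries, against 47.7 and 44.0 CPM in control libraries. It had the lowest log2 fold change of the members (-0.22 ± 0.20, or -0.13 after GC correction), with its groups overlapping. Fdps, the farnesyl diphosphate synthase gene, had 100 and 53 counts in Usp28 KO libraries, against 56 and 44 counts in control libraries. It was the least abundant member, and 1124 bases of its exons are shared with Gm43738 on the same strand, so that reads there may not have been assigned to it and its log2 fold change of 0.53 ± 0.36 (0.0019 without Usp28 KO replicate 1) is uncertain.

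From squalene to cholesterol, 6 of 11 genes had both Usp28 KO libraries above both control libraries (54.5%) and 0 had both below, where 21.4% and 20.4% of all tested genes did. Fdft1, the squalene synthase gene, had 128 and 139 CPM in Usp28 KO libraries, against 116 and 125 CPM in control libraries, and its exons overlap those of the abundant Ctsb on the other strand. Sqle, the gene of squalene epoxidase, had 119 and 116 CPM in Usp28 KO libraries, against 107.6 and 108 CPM in control libraries. These differences were small, with log2 fold changes of 0.15 ± 0.16 and 0.12 ± 0.15. Lss, the lanosterol synthase gene, had 125 and 96.6 CPM in Usp28 KO libraries, against 95.6 and 91.0 CPM in control libraries. Cyp51, which encodes the lanosterol demethylase, had 131 and 100.7 CPM in Usp28 KO libraries, against 99.04 and 90.7 CPM in control libraries, and shares 166 bases of exon with Akap9 on the other strand. Msmo1, the gene of the sterol methyl oxidase, had 173 and 119.4 CPM in Usp28 KO libraries, against 117.7 and 119.1 CPM in control libraries. In these 3 genes Usp28 KO replicate 1 stood well above the others, while Usp28 KO replicate 2 was close to control. Their log2 fold changes of 0.25 ± 0.17, 0.29 ± 0.17 and 0.30 ± 0.19 were 0.05, 0.08 and 0.01 without Usp28 KO replicate 1.

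Dhcr7 (ENSMUSG00000058454, chromosome 7, 143823145 to 143848410) encodes the reductase of 7-dehydrocholesterol. It had 94.4 and 88.4 CPM in Usp28 KO libraries, against 74.3 and 68.1 CPM in control libraries. The groups were further apart than the libraries within each (log2 fold change 0.36 ± 0.16, 95% interval 0.01 to 0.71; edgeR, unadjusted p = 0.0430, adjusted p = 0.430). The other members of this stretch overlapped between the groups. Tm7sf2, a sterol reductase gene that shares 532 bases of exon with Vps51 on the same strand, had 27.7 and 18.7 CPM in Usp28 KO libraries and 20.9 and 16.2 CPM in control libraries (log2 fold change 0.32 ± 0.24, or 0.01 without Usp28 KO replicate 1). Nsdhl and Hsd17b7, which like Msmo1 above are genes of C4 demethylation, had log2 fold changes of -0.05 ± 0.18 and -0.16 ± 0.21. Ebp, the sterol isomerase gene, and Sc5d, the sterol desaturase gene, had -0.07 ± 0.19 and -0.10 ± 0.19. After GC correction the values were -0.007 for Nsdhl, -0.09 for Hsd17b7 and -0.005 for Sc5d.

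**Figure D1:**
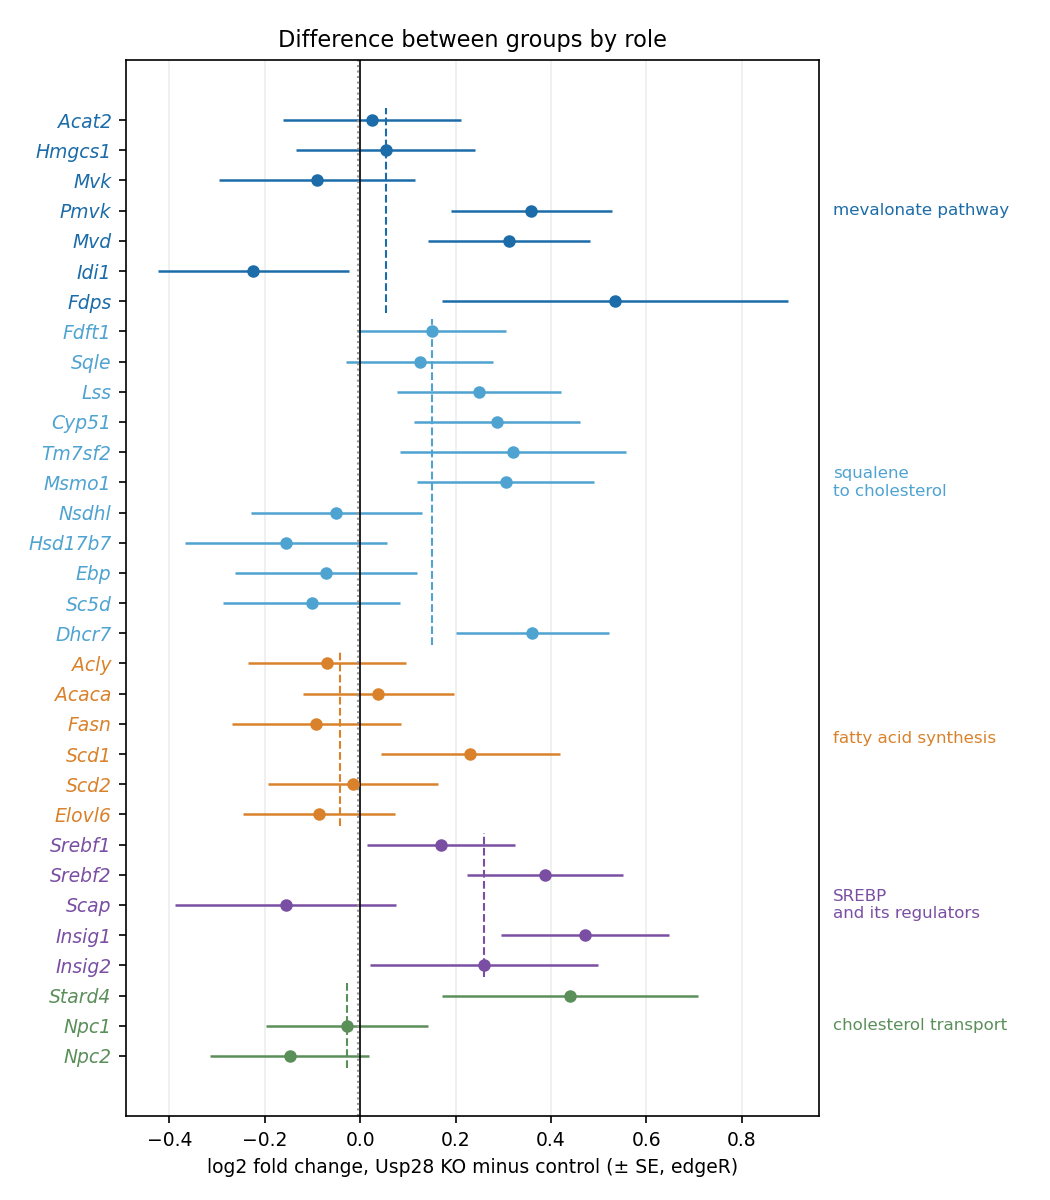
Log2 fold change of each gene, Usp28 KO minus control, with its SE from edgeR (n = 2 libraries per group), by role; dashed lines mark the median of each role and the dotted line that of all tested genes. Insig1, Stard4, Srebf2, Dhcr7 and Pmvk stand to the right, between 0.36 and 0.47, and Fdps at 0.53 has the widest error.

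The fatty acid branch differed little between the groups. Its median log2 fold change was -0.04, or -0.01 after GC correction, and the lowest unadjusted p among its 6 genes was 0.241 (edgeR), for Scd1. Acly, whose ATP citrate lyase makes cytosolic acetyl-CoA for both branches, had 625 and 615 CPM in Usp28 KO libraries, against 673 and 628 CPM in control libraries. It was the 1 member whose Usp28 KO libraries both lay below control, with a log2 fold change of -0.07 ± 0.17; with upper-quartile factors or library totals its groups overlapped. Acaca, the acetyl-CoA carboxylase gene, had 107 and 96.9 CPM in Usp28 KO libraries, against 101.1 and 97.6 CPM in control libraries (log2 fold change 0.04 ± 0.16). Fasn, the fatty acid synthase gene, had 629 and 581 CPM in Usp28 KO libraries, against 716 and 573 CPM in control libraries. The control libraries held both extremes, and the log2 fold change was -0.09 ± 0.18, or -0.21 after GC correction.

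Elovl6, which encodes an elongase of palmitate, had 255 and 265 CPM in Usp28 KO libraries, against 261 and 291 CPM in control libraries (log2 fold change -0.09 ± 0.16, or -0.02 after GC correction). Scd1 and Scd2 encode stearoyl-CoA desaturases of related sequence, so reads could be split between them. Scd1 had 277 and 320 CPM in Usp28 KO libraries, against 212 and 296 CPM in control libraries, and Usp28 KO replicate 1 lay between the control values (log2 fold change 0.23 ± 0.19, or 0.0083 without control replicate 1). Scd2 had 1043 and 909 CPM in Usp28 KO libraries, against 1064 and 908 CPM in control libraries. Its log2 fold change of -0.01 ± 0.18 has a 95% interval of -0.40 to 0.37.

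The transport genes did not separate the groups. Stard4, whose product carries cholesterol between membranes, had 98.3 and 52.4 CPM in Usp28 KO libraries, against 62.8 and 48.2 CPM in control libraries. Usp28 KO replicate 2 lay between the control libraries and replicate 1 stood far above all others. Its log2 fold change of 0.44 ± 0.27 (edgeR, adjusted p = 0.600) depended on which Usp28 KO library was kept. It was 0.82 with replicate 1 alone and -0.09 with replicate 2 alone, fits in which the spread between Usp28 KO libraries was not measured. Npc1 and Npc2 encode the proteins that move cholesterol out of lysosomes. Npc1 had 67.2 and 81.5 CPM in Usp28 KO libraries, against 72.5 and 79.0 CPM in control libraries, and overlaps Rmc1 on the other strand. Npc2 had 196.0 and 176.8 CPM in Usp28 KO libraries, against 227 and 186 CPM in control libraries. Their log2 fold changes were -0.03 ± 0.17 (0.02 after GC correction) and -0.15 ± 0.17.

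Set side by side, the median log2 fold changes were 0.14 for the 18 sterol genes and -0.04 for the 6 fatty acid genes, against -0.004 over all tested genes. Both Usp28 KO libraries lay above both control libraries for 8 of 18 sterol genes (44.4%) and for 0 of 6 fatty acid genes, where 21.4% of all tested genes did. Under the other scalings and GC correction the sterol count was 8 or 9, where 21% to 26.1% of all tested genes did so, and the fatty acid count was 0, or 1 with library totals. With a library left out the counts were 8 to 12 and 1 to 2, where 34.1% to 37.4% of all genes did so. The median difference between the branches was 0.18, and its SD between replicate libraries was 0.0664. By library, relative to the mean of the 4, the sterol branch median was 0.16 and -0.04 in the Usp28 KO libraries, against -0.07 and -0.13 in the control libraries. Those of the fatty acid branch were 0.02 and -0.05 in the Usp28 KO libraries, against 0.05 and -0.03 in the control libraries. The mitochondrial share of counts was 1.92% and 3.33% in the Usp28 KO libraries, against 2.77% and 5.65% in the control libraries, lowest in the library with the highest sterol median and highest in the one with the lowest. Its part in these medians was not tested. Without Usp28 KO replicate 1 the sterol median was 0.01, and without Usp28 KO replicate 2 it was 0.25. The difference between branches therefore moved with Usp28 KO replicate 1, and no test of it was made. It also rests on the 6 fatty acid genes listed. The 16 other lipogenic and desaturase genes, described below, had a median of 0.18. For 8 of them (50%) both Usp28 KO libraries lay above both control libraries, against 21.4% of all tested genes. Those 8 include Dgat2, at 8 to 23 counts per library. That list reaches beyond fatty acid synthesis, to triglyceride synthesis for example, so it is not a second fatty acid branch. Summed over the genes, the sterol branch took 1482 and 1258 CPM in Usp28 KO libraries and 1273 and 1199 CPM in control libraries, and the fatty acid branch 2936 and 2786 CPM in Usp28 KO libraries and 3027 and 2793 CPM in control libraries.

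**Figure D2:**
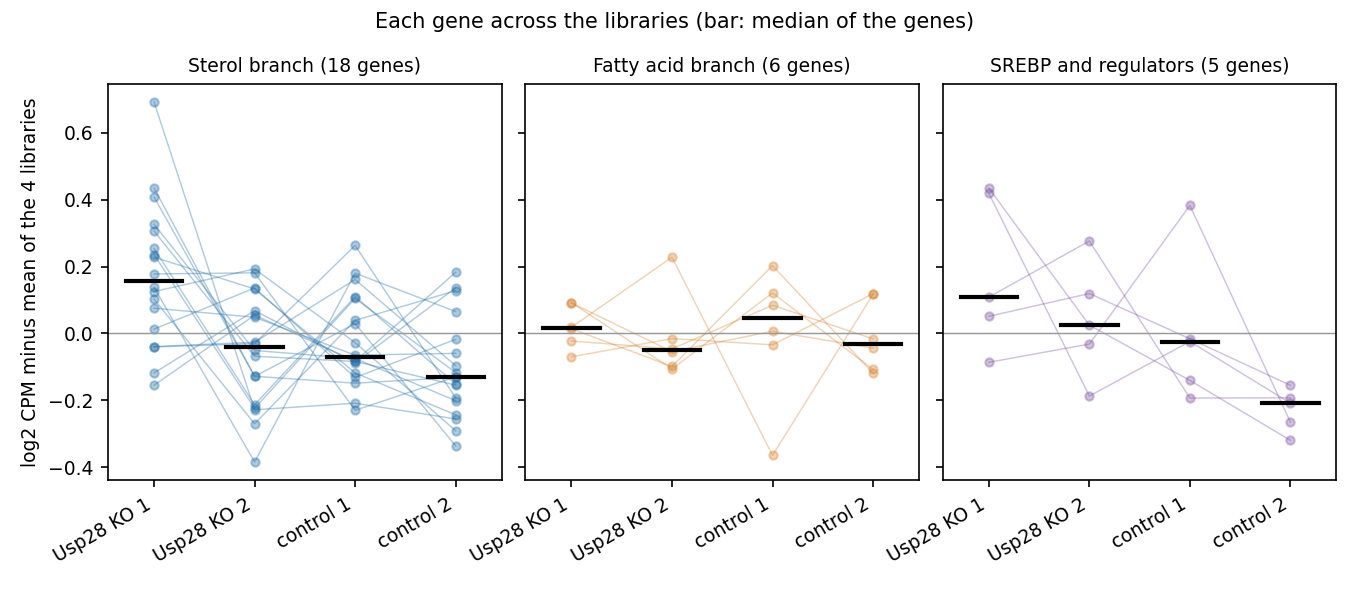
Log2 CPM of each gene minus its mean over the 4 libraries, for the sterol branch, the fatty acid branch and the SREBP genes with their regulators; lines join the values of 1 gene and black bars are medians over genes. The sterol median is 0.16 in Usp28 KO replicate 1 and between -0.13 and -0.04 in the other libraries.

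For several genes, replicates of a group differed by more than the group means did. Of the genes listed next this does not hold for Insig1 on the log2 scale, where the groups differed by 0.47. In the Usp28 KO group, the log2 ratio of replicate 1 to replicate 2 was 0.92 for Fdps, 0.91 for Stard4, 0.61 for Insig2, 0.56 for Tm7sf2, 0.54 for Msmo1, 0.52 for Idi1, 0.47 for Hmgcs1, 0.46 for Acat2 and 0.41 for Insig1. In the control group the same ratio was 0.05 for Fdps, 0.38 for Stard4, 0.18 for Insig2, 0.37 for Tm7sf2, -0.02 for Msmo1, 0.11 for Idi1, 0.26 for Hmgcs1, 0.22 for Acat2 and 0.18 for Insig1. In the control group replicate 1 was higher for 8 of these 9 genes. They were the members above 0.4 in the Usp28 KO group, named after their values were seen, so their direction in that group was fixed by the choice. Over genes averaging at least 5 CPM, the replicate differences of the 2 groups correlated at 0.518. The share over all genes chosen in the same way was not computed, so the 8 of 9 is not a result about the members. Over the sterol branch, replicate 1 was higher for 11 of 18 genes in the Usp28 KO group and for 11 of 18 in the control group (61.1% each), against 50.2% and 49.3% of the 10704 genes averaging at least 5 CPM. It was higher in both groups for 8 of the 18 (44.4%), against 33% of those genes. The median ratio was 0.23 in the Usp28 KO group and 0.09 in the control group on the log2 scale. Several members went the other way in both groups, among them Scd1 with -0.21 in the Usp28 KO group and -0.48 in the control group. In the sterol branch these were Sc5d (-0.21 in Usp28 KO and -0.27 in control), Nsdhl (-0.19 and -0.22), Fdft1 (-0.12 and -0.11) and Pmvk (-0.003 and -0.10). Npc1 and Elovl6 did so as well. Srebf2 had -0.17 in the Usp28 KO group and -0.001 in the control group.

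**Figure D3:**
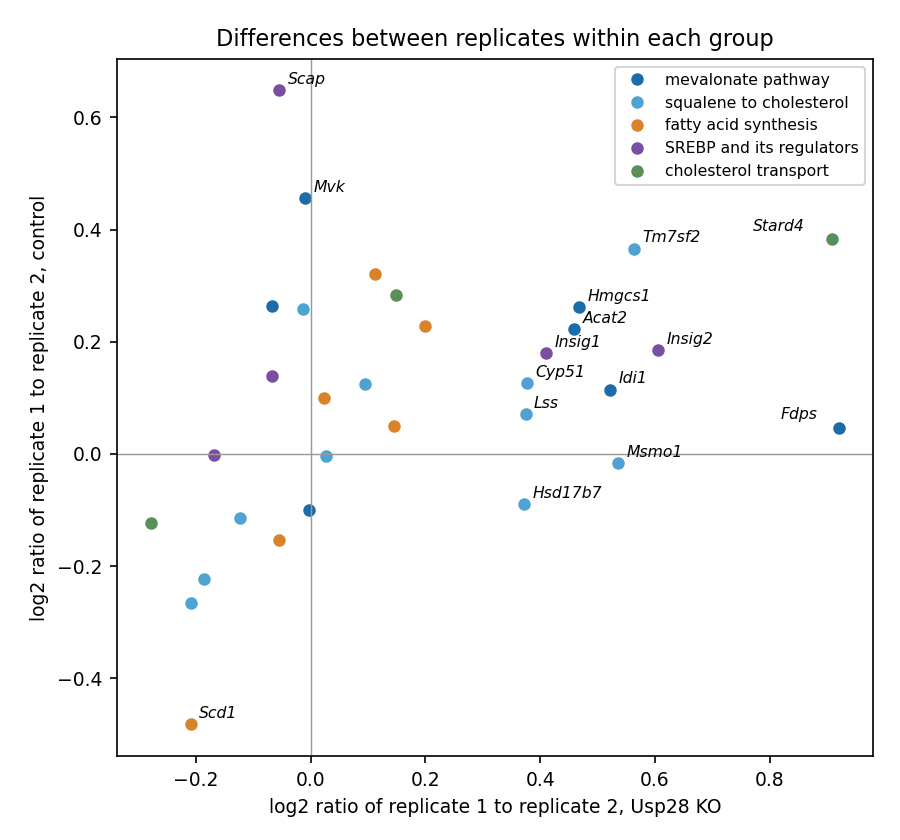
Log2 ratio of replicate 1 to replicate 2 in the Usp28 KO group (horizontal) and in the control group (vertical), 1 point per gene and coloured by role. Stard4, Tm7sf2, Hmgcs1, Acat2 and Insig1 lie to the upper right and Scd1, at -0.21 and -0.48, to the lower left.

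Between same-numbered libraries the differences varied in how even they were over the 2 numbers. The log2 ratio of Usp28 KO to control was 0.58 for number 1 and 0.34 for number 2 in Insig1, 0.30 and 0.47 in Srebf2, and 0.35 and 0.38 in Dhcr7. Pmvk had 0.41 and 0.31. Msmo1 had 0.56 for number 1 and 0.004 for number 2, and Hmgcs1 had 0.14 and -0.06. Over the sterol branch the median ratio was 0.14 for number 1 and 0.08 for number 2, and over the fatty acid branch it was -0.03 and -0.004. The labels do not say that a number marks a shared batch.

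Levels between genes are compared as CPM per kilobase of exon. Scd2 was the most abundant member, at 179 ± 17.4 in Usp28 KO and 180.4 ± 20.2 CPM per kilobase in control libraries (SD, n = 2 each), followed by Acly at 117 ± 1.35 in Usp28 KO and 123 ± 6.05 in control libraries. Srebf2, Fasn and Scd1 came next, between 52.0 and 72.9 CPM per kilobase as group means, and the SDs of Fasn and Scd1 overlapped. Hmgcs1, at 49.6 ± 11.3 in Usp28 KO and 47.8 ± 6.11 in control libraries, was the highest of the sterol branch and could not be told from Insig1 at 55.7 ± 11.1 in Usp28 KO and 40.2 ± 3.53 in control libraries. Most sterol genes lay lower, from Mvd, at 37.5 ± 1.24 in Usp28 KO and 30.2 ± 3.89 in control libraries, down to Hsd17b7, at 3.67 ± 0.666 in Usp28 KO and 4.09 ± 0.178 in control libraries. Fdps stood apart at 0.972 ± 0.424 in Usp28 KO and 0.670 ± 0.0154 in control libraries. Reads in the exon bases it shares with Gm43738 may not have been assigned to it, so its level and place in this order are uncertain. Acaca, at 5.98 ± 0.424 in Usp28 KO and 5.82 ± 0.144 in control libraries, was the lowest of the fatty acid branch. Its summed exon length of 17074 bases, the longest of the members, enters this value.

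Within paralog pairs, the same member led in each library. Srebf2 exceeded Srebf1 per length by 2.88 and 3.08 times in Usp28 KO libraries and by 2.45 and 2.70 times in control libraries. Insig1 exceeded Insig2 by 9.64 and 11.0 times in Usp28 KO libraries and by 8.80 and 8.83 times in control libraries. For Scd2 over Scd1 the ratio was 3.38 and 2.54 in Usp28 KO libraries and 4.49 and 2.74 in control libraries. The Srebf2 and Insig1 ratios did not overlap between the groups (2.88 against 2.70 and 9.64 against 8.83 at the closest), and the Scd ratio did. Among single genes, 21.4% lay higher and 20.4% lower in Usp28 KO without overlap, and no such share was computed for ratios. Srebf2 and Insig1 were also the 2 members with the lowest p, so these ratios are no separate result.

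**Figure D4:**
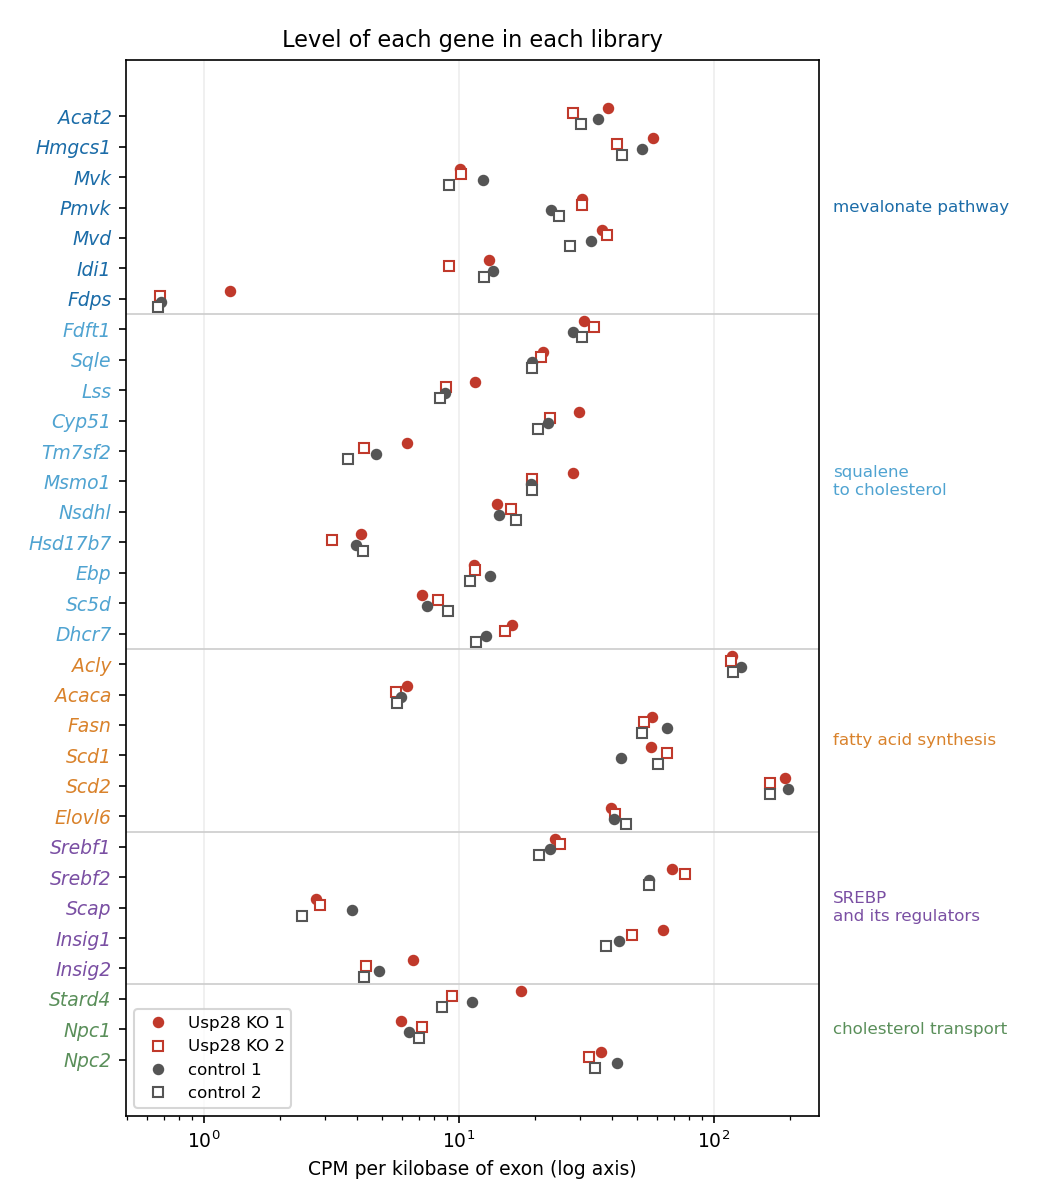
Level of each gene in each library as CPM per kilobase of exon on a log axis, in pathway order; red marks are Usp28 KO and grey marks control libraries, filled for replicate 1 and open for replicate 2. Levels run from below 1 for Fdps, whose count is uncertain, to between 166 and 195 for Scd2. The groups lie close together for most genes.

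Further genes of the pathways were read from the same fit, and 0 of them passed the test in either direction. Of 16 other lipogenic and desaturase genes, 13 had log2 fold changes above 0 (median 0.18), and both Usp28 KO libraries lay above both control libraries for 8 (50%, against 21.4% of all tested genes). Acacb, the gene of the mitochondrial acetyl-CoA carboxylase, had 46.6 and 54.0 CPM in Usp28 KO libraries, against 33.4 and 37.7 CPM in control libraries (log2 fold change 0.50 ± 0.18; edgeR, adjusted p = 0.323). Acss2, the acetyl-CoA synthetase gene, had 23.5 and 22.0 CPM in Usp28 KO libraries, against 18.4 and 13.6 CPM in control libraries (log2 fold change 0.51 ± 0.22; edgeR, adjusted p = 0.410). Dgat2, an acyltransferase gene of triglyceride synthesis, stayed near 1 CPM or below in each group, with 0.909 and 1.23 CPM in Usp28 KO and 0.563 and 0.504 CPM in control libraries.

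The isoprenoid side branches had 1 of 9 log2 fold changes above 0 and a median of -0.09. That gene was Coq2, of ubiquinone synthesis, with 52.3 and 47.7 CPM in Usp28 KO libraries, against 33.8 and 37.0 CPM in control libraries (log2 fold change 0.50 ± 0.17; edgeR, adjusted p = 0.318). Genes of SREBP processing and degradation had a median of -0.10 over 6, with 2 above 0. Fbxw7 had 51.6 and 48.5 CPM in Usp28 KO libraries, against 63.9 and 59.8 CPM in control libraries, which gave -0.30 ± 0.17 on the log2 scale (edgeR, adjusted p = 0.536). Of 10 genes of sterol esterification, export and the LXR receptors, 9 were tested, with a median of 0.06. The exporter genes Abca1 and Abcg1 lay on opposite sides, at -0.32 ± 0.18 and 0.45 ± 0.26. Abca1 had 34.4 and 33.7 CPM in Usp28 KO libraries, against 44.4 and 40.3 CPM in control libraries.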

How the data were processed

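The authors deposited raw read counts per gene for 4 libraries. The submitters' processing notes name HISAT2, featureCounts, DESeq2 and mm10 and give no versions. Strandedness, multi-mapped reads and the gene annotation used for counting were not given in the sources used here, so overlapping genes and paralogs are uncertain. Symbols, GC content and exon overlaps came from GENCODE M21: 55141 of 55401 identifiers matched, and all 54349 that matched with their version had the same coordinates.

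The main test on these counts was that of edgeR 4.0.16 under R 4.3.3 (filterByExpr with minimum count 10 and minimum total 15, TMM scaling, robust quasi-likelihood fit, Benjamini-Hochberg adjustment over 15341 genes, threshold 0.05). CPM use the TMM-scaled library size. The alternatives were DESeq2 1.42.0, limma-voom (3.58.1), 3 scalings, 2 filters, removal of abundant genes, a replicate block, GC correction (natural spline, 5 degrees of freedom) and leaving out each library. The steps were tested on simulated counts that held no GC trend and no effect of replicate number. The members and lists were chosen with earlier results of these data known. All 32 members and at most 3 genes with the lowest p of each other list are named.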

Additional observations from a re-analysis of the deposited data

How the results depend on the processing

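No member was called by DESeq2, limma-voom, the other scalings and filters, removal of abundant genes, or GC correction alone. Over all genes edgeR called 0, DESeq2 127, upper-quartile factors 21, library totals 29 and no filter 322; leaving out a library gave 142 to 346 genes and 0 to 1 members (Stard4, without Usp28 KO replicate 2), with 1 sample left in that group assumed to vary like the others. With the replicate number as a block, 1681 genes (11.0%) and 3 members were called: Insig1, Srebf2 and Stard4 (adjusted p = 0.00654, 0.0128 and 0.0477). With the block and GC correction, 3187 genes (20.8%) and 9 members were called. They were these 3 with Cyp51, Dhcr7, Msmo1, Lss, Scd1 and Fasn, the last at -0.21 and the others positive. Both fits with the block leave little spread between libraries to measure in each gene. Their p-values therefore rest mostly on the spread of other genes. Deviations of same-numbered libraries correlated at 0.518 over 2 pairs, which does not show a shared batch. Without GC correction the block called no member besides Insig1, Srebf2 and Stard4.

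The sterol median, 0.14, ranged from 0.0112 to 0.2475 with a library left out. The fatty acid median, -0.04, was -0.0133 with GC correction, 0.0152 with upper-quartile factors and 0.0188 with library totals. With a library left out it ranged from -0.073 to 0.0353, and the difference of medians, 0.18, ran from 0.0823 to 0.2304. The cause was not tested.

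Of 480 member values under alternatives, 29 from 15 members changed sign. Nsdhl was 0.0073 with upper-quartile factors and 0.0118 with library totals, Scd2 0.0426 and 0.0464 (0.0005 with the filter of 50 counts), and Npc1 0.0297 and 0.0327 (0.0157 with GC correction, 0.0074 with block and GC correction). With a library left out, ranges were -0.22 to 0.23 for Acat2, -0.20 to 0.26 for Hmgcs1, -0.31 to 0.16 for Mvk, -0.51 to 0.0083 for Idi1, -0.16 to 0.0556 for Nsdhl, -0.35 to 0.0141 for Hsd17b7, -0.20 to 0.0624 for Ebp, -0.23 to 0.0276 for Sc5d, -0.0366 to 0.10 for Acaca, -0.25 to 0.0758 for Fasn, -0.13 to 0.10 for Scd2, -0.45 to 0.21 for Scap, -0.0755 to 0.53 for Insig2, -0.0851 to 0.82 for Stard4 and -0.18 to 0.10 for Npc1.

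The count of members whose Usp28 KO libraries both exceeded control, 11, was also recomputed in ways chosen after seeing the data: it was 11 or 12 under other scalings and GC correction, and 12 to 20 with a library left out, where 34.1% to 37.4% of all genes did so. The count of those below control, 1, was 0 or 1, and 5 to 8 with a library left out (33.7% to 36.3% of all genes).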

Other observations

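Fatty acid oxidation genes, which break down what the fatty acid branch makes, were compared in the same fit. Of 10, 9 were tested, 4 had log2 fold changes above 0 and 5 below, and the median was -0.02; none passed the edgeR test, and 0 reached an unadjusted p under 0.05. The lowest p belonged to Acadm, the medium-chain acyl-CoA dehydrogenase gene, with 146 and 131 CPM in Usp28 KO libraries, against 173 and 175 CPM in control libraries (log2 fold change -0.33 ± 0.16; edgeR, adjusted p = 0.460). Both of its Usp28 KO libraries lay below both control libraries, as for 20.4% of all tested genes.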
